A study of Mus musculus with 10 samples.

Results

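Chemokines are small secreted proteins that steer leukocytes, and the receptors they act on are G protein-coupled receptors on the surface of the migrating cells. In the marrow they are known for holding stem cells in place, for releasing monocytes and neutrophils into blood and for placing lymphocytes. Ligands are made by macrophages, stromal cells and many leukocytes, often after interferon or NF-kappaB signaling, while a receptor marks the cell type that can follow its ligands. The genes described here were all those with a symbol of the Ccl, Cxcl, Ccr, Cxcr, Cx3c or Xc families on a probe set that lists exactly 1 gene, with 1 ligand gene and 1 receptor gene left out by the selection rule. They came to 50 genes, 33 ligands and 17 receptors, of 19938 genes on the array, carried by 55 of its 35556 probe sets. Where a gene had more than 1 such probe set, the brightest on average stands for it.

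Total RNA of bone marrow (BM) was measured on 10 arrays, 5 from recipients of fetal liver hematopoietic stem cells (HSCs) of vitamin D-deficient dams, VD(−), and 5 from recipients of HSCs of vitamin D-sufficient dams, VD(+). Per the labels all mice were C57BL6, of both sexes and aged 8 weeks. In the paper the recipients were transplanted at an age of 8 weeks and their marrow was taken weeks later. The age in the labels may therefore not be that at sampling. The recipients were irradiated, vitamin D-sufficient mice in both groups, and host-derived cells may remain in the marrow. By design the groups differ in the diet of the donors' dams, and the arrays also differ in sex-linked signal, as given below. Each group holds 3 single samples (replicates 1 to 3) and 2 pools, and it is unknown whether the single mice also went into the pools. The p-values therefore describe only how far these arrays scatter. The labels name BM as the source but BM macrophages in the treatment field, and the paper's text and legend differ in the time after transplant. In bulk marrow, fewer cells of a type and less RNA per cell cannot be told apart.

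Values are log2 signals, differences are VD(−) less VD(+), and per-array values are given in the order replicates 1, 2 and 3, pool 1 and pool 2. The array medians lay between 4.74 and 4.80. A probe set was called dim where its mean did not exceed 3.97, the level under which 95% of the 1035 olfactory receptor probe sets lay. All 50 genes were tested, and 35 of them, 22 ligands and 13 receptors, were above that level. Y-linked genes had a mean signal of 6.64, 6.80 and 5.31 in VD(−) replicate 1, pool 1 and pool 2, against 2.25 to 2.56 in the other 7 arrays. No VD(+) array carried Y-linked signal, although the labels give both sexes, so sex-linked signal is in part confounded with the group. In the paper the donor cells were pooled from male and female fetuses, and most blood cells of recipients were of donor origin. Sex-linked signal in marrow therefore need not show the sex of the recipient. Y-linked signal less that of Xist, the RNA of the inactive X chromosome, is the sex-linked covariate used below. Among markers of marrow cell types, tissue macrophage genes had a higher VD(−) mean in 13 of 13 measured genes, 3 of them at a nominal p under 0.05, and the mean over the list ranged from 7.74 to 8.22 in VD(−) arrays and from 7.31 to 7.86 in VD(+) arrays. Mature B cell genes had a lower VD(−) mean in 9 of 9, 4 of them at a nominal p under 0.05, with list means of 7.03 to 7.24 in VD(−) arrays and 7.29 to 7.62 in VD(+) arrays. All 13 macrophage markers and all 9 B cell markers were above the dim level. Other lists also had more genes below 0 than above it, among them megakaryocytes and platelets (7 of 7), dendritic cells (8 of 12), stem and progenitor cells (7 of 10) and neutrophils (10 of 14). In these 4 lists 1 gene was lower and 1 higher at a nominal p, both of the dendritic cell list, with Bst2 the lower. More genes lay above 0 in T cells (8 of 10), classical monocytes (6 of 7) and endothelium (7 of 10). The same held for stroma and osteoblasts (8 of 11) and erythroid cells (5 of 7), among others. Of all genes, 4.05% were higher and 2.95% lower at a nominal p.

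No chemokine or receptor gene passed an adjusted p under 0.05 in limma, where 0.118% of all probe sets and 0.0903% of all genes with 1 probe set each did. At a nominal p under 0.05, 7 of 33 ligands and 3 of 17 receptors were higher in VD(−) recipient BM and 0 were lower. Of all probe sets, 7.09% passed that threshold, 3.85% higher and 3.23% lower, and of the 19938 genes 4.05% were higher and 2.95% lower. With the thresholds of the methods, which add a bound on the ratio in each direction, 5 ligands and 3 receptors were higher and 0 lower, against 2.64% of all probe sets higher and 3.23% lower. The methods' t-test, two-sided, placed 7 ligands and 1 receptor under a nominal 0.05, and 0 after Benjamini-Hochberg adjustment. The lowest adjusted p of the 50 was 0.43, for Ccl19. The log2 fold change was above 0 for 24 of 33 ligands, with a median of 0.12, and for 9 of 17 receptors, with a median of 0.02. Of all probe sets, 49.1% were above 0, and of all genes 50.3%.

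**Figure D1:**
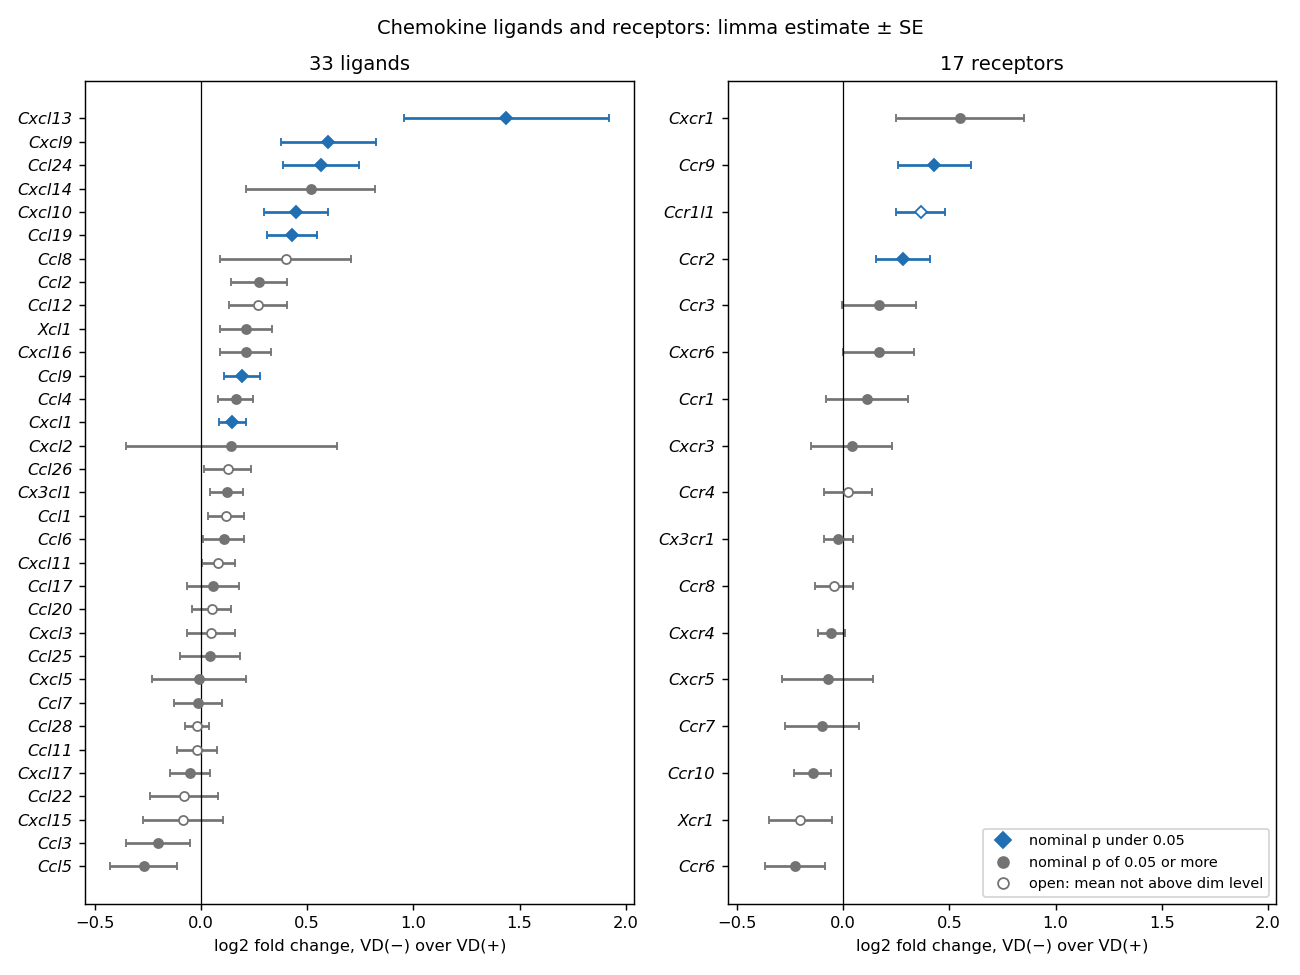
Log2 fold change (x axis, VD(−) over VD(+)) with its standard error from limma for each of the 33 ligands (left) and 17 receptors (right), in order of size. Diamonds are genes with a nominal p under 0.05, open symbols are genes not above the dim level of 3.97, and 24 ligands and 9 receptors lie to the right of 0.

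The promoter windows of 6 of the 7 ligands at a nominal p under 0.05 are given first because these ligands carry the nominal differences and chemokine genes of this kind are known to answer to interferon or NF-kappaB. Each window runs 250 bases before to 50 bases after the start of the gene, from RefSeq on build GRCm38.p6, written 5′ to 3′ on the gene's own strand. Capitals mark matches on either strand to an NF-kappaB motif or to the interferon response element, searched as GAAA, any 2 bases and GAAA again.
Cxcl9, chr5:92328030-92328329, minus strand: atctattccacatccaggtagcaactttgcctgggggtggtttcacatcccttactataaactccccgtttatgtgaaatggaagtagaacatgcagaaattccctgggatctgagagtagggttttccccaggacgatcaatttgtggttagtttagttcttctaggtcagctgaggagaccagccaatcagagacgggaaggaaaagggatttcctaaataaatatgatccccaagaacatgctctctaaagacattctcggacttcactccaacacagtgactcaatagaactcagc
Cxcl10, chr5:92348840-92349139, minus strand: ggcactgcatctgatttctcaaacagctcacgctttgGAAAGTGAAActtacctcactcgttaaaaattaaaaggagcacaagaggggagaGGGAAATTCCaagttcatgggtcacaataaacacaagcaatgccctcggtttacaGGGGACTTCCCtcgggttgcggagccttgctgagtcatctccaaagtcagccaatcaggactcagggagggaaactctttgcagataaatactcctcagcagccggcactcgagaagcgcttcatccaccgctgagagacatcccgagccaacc
Cxcl13, chr5:95956689-95956988, plus strand: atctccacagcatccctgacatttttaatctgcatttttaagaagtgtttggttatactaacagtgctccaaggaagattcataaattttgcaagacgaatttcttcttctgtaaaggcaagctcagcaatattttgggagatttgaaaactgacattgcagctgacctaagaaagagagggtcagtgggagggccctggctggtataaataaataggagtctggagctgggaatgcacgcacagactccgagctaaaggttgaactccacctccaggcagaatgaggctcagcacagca
Ccl19, chr4:42756316-42756615, minus strand: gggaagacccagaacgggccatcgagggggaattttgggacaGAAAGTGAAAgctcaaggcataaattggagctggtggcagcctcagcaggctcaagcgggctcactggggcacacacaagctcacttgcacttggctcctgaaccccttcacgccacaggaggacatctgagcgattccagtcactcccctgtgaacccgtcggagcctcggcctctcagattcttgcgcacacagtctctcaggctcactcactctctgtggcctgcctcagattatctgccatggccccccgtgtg
Cxcl1, chr5:90890995-90891294, plus strand: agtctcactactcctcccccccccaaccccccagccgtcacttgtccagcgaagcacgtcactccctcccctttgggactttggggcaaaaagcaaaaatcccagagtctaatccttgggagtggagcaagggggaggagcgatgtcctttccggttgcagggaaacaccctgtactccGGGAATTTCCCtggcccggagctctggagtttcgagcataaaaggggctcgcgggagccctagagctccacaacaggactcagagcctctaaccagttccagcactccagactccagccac
Ccl9, chr11:83578587-83578886, minus strand: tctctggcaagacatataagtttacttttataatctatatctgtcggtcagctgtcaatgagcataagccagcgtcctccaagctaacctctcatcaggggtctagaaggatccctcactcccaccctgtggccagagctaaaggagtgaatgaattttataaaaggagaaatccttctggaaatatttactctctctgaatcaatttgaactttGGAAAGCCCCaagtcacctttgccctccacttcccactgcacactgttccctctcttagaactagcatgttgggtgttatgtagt

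The letters GAAAGTGAAA stand in the windows of both Cxcl10, at −213 from the start, and Ccl19, at −208. Cxcl10 also held NF-kappaB matches at −159 and, overlapping one another, at −104 and −103. Cxcl1 held overlapping matches at −71 and −70 and Ccl9 held 1 at −35, while Cxcl9 and Cxcl13 held no match to either motif. A window was found for 36 of the 50 genes. The NF-kappaB motif was in 7 of 22 ligand windows (31.8%), 3 of 14 receptor windows (21.4%) and 9.55% of 27025 genes with a window. The interferon response element was in 3 of 22 ligand windows (13.6%), namely those of Ccl19, Cxcl10 and Cxcl14, in 0 of 14 receptor windows and in 3.99% of genes. A TATA box, TATAAA, was in 9 of 22 ligand windows (40.9%) and 15.7% of genes. These are matches of letters and were not measured for binding.

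Among the ligands of CXCR3, the receptor of activated T cells and NK cells, Cxcl9 and Cxcl10 were higher in VD(−) recipient BM at a nominal p. Both are known as targets of interferon gamma and lie next to each other on chromosome 5. Cxcl9 had signals of 6.48, 5.89, 5.85, 6.80 and 6.13 in VD(−) arrays, against 5.10, 5.46, 6.12, 5.64 and 5.84 in VD(+) arrays. VD(−) replicate 1 and pool 1 were the highest of the 10 and VD(+) replicate 1 the lowest, and the groups overlapped. The log2 fold change was 0.60 (SE 0.22, exact permutation p = 0.0397, adjusted p = 0.629 from limma). VD(−) replicate 1 and pool 1 also had the highest means of the marker lists of tissue macrophages (7.95 and 8.22), endothelium (5.82 and 5.92) and pro-B and pre-B cells (7.08 and 7.37). In VD(+) arrays these lists reached at most 7.86, 5.73 and 6.69. The stroma and osteoblast list was highest in VD(−) pool 1, at 6.33, and VD(+) replicate 1 had the lowest macrophage mean, at 7.31. T cell markers went the other way, with the lowest list means of the 10 in VD(−) replicate 1 and pool 1, at 5.53 and 5.64. Both of these arrays carry Y-linked signal. The part of these cells in the Cxcl9 difference was not tested. Without VD(−) replicate 1, VD(−) pool 1 or VD(+) replicate 1 the difference was 0.54, 0.46 or 0.47 and missed a nominal p of 0.05, and with sex-linked signal as a covariate it was 0.22.

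Cxcl10 had signals of 5.25, 5.05, 4.85, 5.06 and 4.47 in VD(−) arrays, against 4.30, 4.23, 4.60, 4.56 and 4.76 in VD(+) arrays. Of the VD(−) arrays, 4 lay above all 5 VD(+) arrays, and pool 2 lay among them. The log2 fold change was 0.45 (SE 0.15, exact permutation p = 0.0476, adjusted p = 0.571 from limma), and it was 0.68 in the single samples and 0.10 in the pools. Cxcl11, the remaining CXCR3 ligand, was dim, with a mean of 2.88 in VD(−) arrays and 2.80 in VD(+) arrays. The receptor gene Cxcr3 had a log2 fold change of 0.04 (95% interval −0.38 to 0.46). Its highest signal was 6.31 in VD(−) replicate 3, where the T cell marker list was also highest, at 6.51, against 5.53 to 6.23 in the other VD(−) arrays and 5.74 to 6.13 in VD(+) arrays. Of 15 measured genes of interferon gamma signaling and its targets, 0 were higher and 1 was lower at a nominal p. Of all genes, 4.05% were higher and 2.95% lower. The lower gene was Ciita, the regulator of MHC class II genes, with a log2 fold change of −0.25 (SE 0.11). Ifng itself was dim, with means of 3.61 in VD(−) arrays and 3.45 in VD(+) arrays. Genes induced by type I interferon had 3 of 13 lower at a nominal p (Irf7, Rsad2 and Bst2), 0 higher and a median log2 fold change of −0.26. The mean over this list was 5.78, 6.28, 6.71, 5.88 and 6.43 in VD(−) arrays, against 6.40 to 6.58 in VD(+) arrays. VD(−) replicate 1 and pool 1, which carry Y-linked signal, were the lowest of the 10. VD(−) pool 2, which also carries it, lay within the VD(+) range. Of the VD(−) arrays without such signal, replicate 2 lay below every VD(+) array and replicate 3 above every one.

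**Figure D2:**
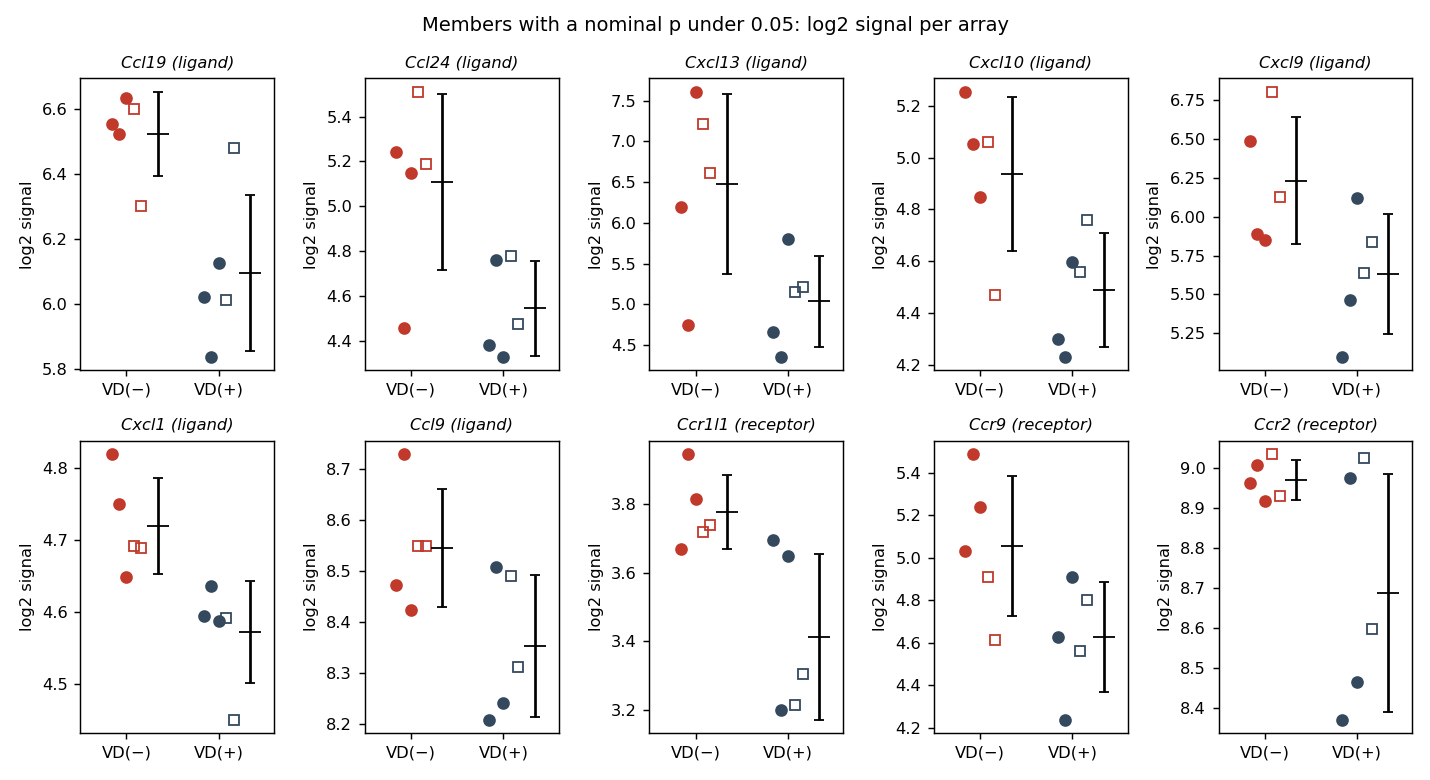
Log2 signal (y axis) of the 10 genes with a nominal p under 0.05 in each array, VD(−) left and VD(+) right. Filled circles are single samples, open squares are pools, and the black bar is the mean ± SD of the 5 arrays. The groups do not overlap for Cxcl1, and they overlap for the other 9 genes.

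Cxcl13, the ligand that draws B cells and follicular T cells through CXCR5, had the largest log2 fold change of the 50. Its signals were 6.20, 4.75, 7.61, 7.21 and 6.61 in VD(−) arrays, against 4.66, 4.35, 5.81, 5.15 and 5.21 in VD(+) arrays. VD(−) replicate 2 lay among the VD(+) arrays and the other 4 VD(−) arrays lay above all of them. The mean was 6.48 ± 1.11 in VD(−) arrays and 5.04 ± 0.56 in VD(+) arrays (SD, n = 5 each). That is a ratio of 2.71, or 1.44 on the log2 scale (SE 0.48, exact permutation p = 0.0476, limma's adjusted p = 0.564). Without VD(−) replicate 2 it was 1.87, and in the leave-one-out fits it ranged from 1.15 to 1.87. The receptor gene Cxcr5 had a log2 fold change of −0.07 (95% interval −0.55 to 0.40), and its highest signal, 5.17, was also in VD(−) replicate 3. Mature B cells carry CXCR5, and the relation between their marker list and Cxcl13 was not tested.

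Ccl19, which guides dendritic cells and naive T cells to lymphoid tissue through CCR7, had the smallest nominal p of the 50. Its signals were 6.55, 6.52, 6.63, 6.60 and 6.30 in VD(−) arrays, against 6.02, 5.84, 6.13, 6.01 and 6.48 in VD(+) arrays. VD(+) pool 2 lay above VD(−) pool 2, and the remaining arrays were apart by group. This gave a log2 fold change of 0.43 (SE 0.12, exact permutation p = 0.0159, adjusted p = 0.43 from limma). Ccl19 has 5 probe sets, whose log2 fold changes lay between 0.40 and 0.44. These probe sets are not independent, and 2 of them hold identical values. In the pools alone the difference was 0.21. Ccr7 had a log2 fold change of −0.10 (SE 0.17). The Ccl21 genes, the other ligands of CCR7, share probe sets with several symbols and were not counted among the 50. Their shared value was −0.17 (SE 0.11).

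Ccl24, an eotaxin that attracts eosinophils through CCR3, had signals of 5.24, 4.46, 5.15, 5.51 and 5.19 in VD(−) arrays, against 4.38, 4.76, 4.33, 4.78 and 4.48 in VD(+) arrays. VD(−) replicate 2 lay among the VD(+) arrays and the other 4 VD(−) arrays lay above all of them, as for Cxcl13. On the log2 scale the groups differed by 0.57 (SE 0.18, exact permutation p = 0.0317, adjusted p = 0.542 from limma). It was 0.73 without VD(−) replicate 2 and 0.29 with sex-linked signal as a covariate. Ccl11, another eotaxin, was dim, with means of 3.95 in VD(−) arrays and 3.96 in VD(+) arrays. Ccr3 had a log2 fold change of 0.17 (SE 0.17), with 1 low array, VD(+) replicate 1, at 6.96.

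By the correlation of group-centred signals over the 10 arrays, the genes most like Ccl19 were Kalrn (r = 0.88), Fam102b, Hyal3, Tfdp2 and Hspb6, and those most like Ccl24 were Lhx9 (r = 0.98), Klf17, Mmp21, Abcg3 and C4b. The points share the arrays and their normalization, Lhx9 and Klf17 were dim, and the values are a description.

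Of the neutrophil-attracting CXC ligands, Cxcl1 was the only gene of the 50 whose groups did not overlap on the probe set used. Of all probe sets, 0.911% were higher in VD(−) arrays without overlap and 0.641% lower, and of all genes 1.09% and 0.632%. Cxcl1 had signals of 4.82, 4.75, 4.65, 4.69 and 4.69 in VD(−) arrays, against 4.59, 4.64, 4.59, 4.59 and 4.45 in VD(+) arrays. The log2 fold change was small, at 0.15 (SE 0.06, exact permutation p = 0.00794, the smallest that 5 arrays against 5 can give, adjusted p = 0.683 from limma). It kept a nominal p under 0.05 in 3 of the 10 leave-one-out fits, those without VD(−) replicate 3, VD(+) replicate 1 or VD(+) replicate 2, and ranged from 0.12 to 0.17 over all 10. Cxcl2, a close relative, ran from 3.99 to 6.04 in VD(−) arrays and from 3.82 to 6.19 in VD(+) arrays, and its 95% interval of −0.95 to 1.24 was the widest of the ligands outside the nominal threshold. Cxcl5 had a log2 fold change of −0.01 (SE 0.22), and Cxcl3 and Cxcl15 were dim. Cxcr1, a receptor of neutrophils, had signals of 4.94, 6.32, 6.23, 5.13 and 5.40 in VD(−) arrays, against 4.89, 5.57, 4.56, 5.42 and 4.84 in VD(+) arrays. Its log2 fold change was 0.55 (SE 0.30, exact permutation p = 0.159), and it was 1.17 with sex-linked signal as a covariate (adjusted p = 0.216 from limma). Of 14 neutrophil markers, 0 were higher or lower at a nominal p.

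The CC ligands Ccl5, Ccl9, Ccl6, Ccl3 and Ccl4, neighbours on chromosome 11, did not share 1 direction. Ccl9, a CCR1 ligand of the mouse, had signals of 8.47, 8.73, 8.42, 8.55 and 8.55 in VD(−) arrays, against 8.21, 8.51, 8.24, 8.49 and 8.31 in VD(+) arrays. Its log2 fold change was 0.19 (SE 0.09, exact permutation p = 0.0635, adjusted p = 0.70 from limma), with overlap between the groups. In the leave-one-out fits it ran from 0.15 to 0.23, and it kept a nominal p under 0.05 without VD(−) replicate 3, VD(+) replicate 2 or VD(+) pool 1. Ccl4 and Ccl6 had log2 fold changes of 0.16 (SE 0.08) and 0.11 (SE 0.10). Ccl5, made by T and NK cells, and Ccl3, made by myeloid cells, had values of −0.27 (SE 0.16) and −0.20 (SE 0.15). The receptor gene Ccr1 had 0.11 (SE 0.19).

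Ccr2, the receptor that inflammatory monocytes use to leave the marrow, had signals of 8.96, 9.01, 8.92, 9.03 and 8.93 in VD(−) arrays, against 8.37, 8.98, 8.47, 9.02 and 8.60 in VD(+) arrays. The VD(−) arrays averaged 8.97 with an SD of 0.05, while VD(+) replicate 2 and pool 1 were at the VD(−) level and the other 3 VD(+) arrays were lower. Between the groups the log2 fold change was 0.28 (SE 0.13, exact permutation p = 0.135, adjusted p = 0.70 from limma), and it kept a nominal p under 0.05 in 2 of 10 leave-one-out fits, those without VD(+) replicate 2 (0.36) and without VD(+) pool 1 (0.37), with 0.20 as the lowest value. Classical monocyte markers, a list that holds Ccr2, had 6 of 7 measured genes above 0 and 2 higher at a nominal p, Ccr2 and Vcan. Its ligand genes Ccl2, which encodes MCP-1, and Ccl12 had log2 fold changes of 0.27 (SE 0.13) and 0.27 (SE 0.14), and Ccl7 had −0.02 (SE 0.11). The exact permutation p was 0.103 for Ccl2 and 0.0952 for Ccl12, which was dim.

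Ccr9, the receptor for Ccl25 on cells bound for thymus and gut, had signals of 5.03, 5.49, 5.24, 4.91 and 4.61 in VD(−) arrays, against 4.63, 4.24, 4.91, 4.56 and 4.80 in VD(+) arrays. The 3 single VD(−) samples lay above all VD(+) arrays, VD(−) pool 1 was level with the highest of them to 2 decimals, and VD(−) pool 2 lay among them. The log2 fold change was 0.43 (SE 0.17, exact permutation p = 0.0556, adjusted p = 0.649 from limma). It was 0.66 in the single samples and 0.08 in the pools. Without VD(−) replicate 2, VD(−) replicate 3, VD(+) replicate 2 or VD(+) pool 1 it was 0.32, 0.38, 0.33 or 0.41 and missed a nominal p of 0.05. Its ligand gene Ccl25 had a log2 fold change of 0.04 (SE 0.14) on the brighter probe set. The other Ccl25 probe set, with means of 4.71 in VD(−) arrays and 4.39 in VD(+) arrays, had a value of 0.32 (SE 0.09). Its groups did not overlap, unlike those of the brighter probe set. The 95% interval of the brighter probe set, −0.27 to 0.36, holds the value of the other. Ccr1l1, a Ccr1-like receptor gene, had a log2 fold change of 0.36 (SE 0.11, exact permutation p = 0.0159, adjusted p = 0.539 from limma) but was dim, with means of 3.78 in VD(−) arrays and 3.41 in VD(+) arrays.

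Cxcr4, which retains stem cells and neutrophils in the marrow, had a mean of 10.67 ± 0.09 in VD(−) arrays and 10.73 ± 0.06 in VD(+) arrays (SD, n = 5 each), and the 95% interval of its log2 fold change was −0.20 to 0.09. Cx3cr1, a receptor of monocytes, had an interval of −0.17 to 0.13. Several lymphocyte and dendritic cell receptors were highest among VD(−) arrays in replicate 3, where Ccr6 was at 4.64, Ccr7 at 7.17, Cxcr6 at 6.18 and Xcr1, a dim gene, at 3.31. Their log2 fold changes were −0.23 (SE 0.14), −0.10 (SE 0.17), 0.17 (SE 0.17) and −0.20 (SE 0.15). Ccr10 had −0.14 (SE 0.09). The 12 ligands outside the naming rule had log2 fold changes between −0.08 and 0.52, with Cxcl14 the highest, and the 4 receptors outside it (Cxcr4, Cx3cr1, Ccr4 and Ccr8) between −0.06 and 0.02. Averaged over the 33 ligands, the deviation of an array from the mean of all 10 was 0.11, −0.01, 0.09, 0.18 and 0.09 in VD(−) arrays, against −0.12, −0.14, −0.07, −0.12 and 0.00 in VD(+) arrays.

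**Figure D3:**
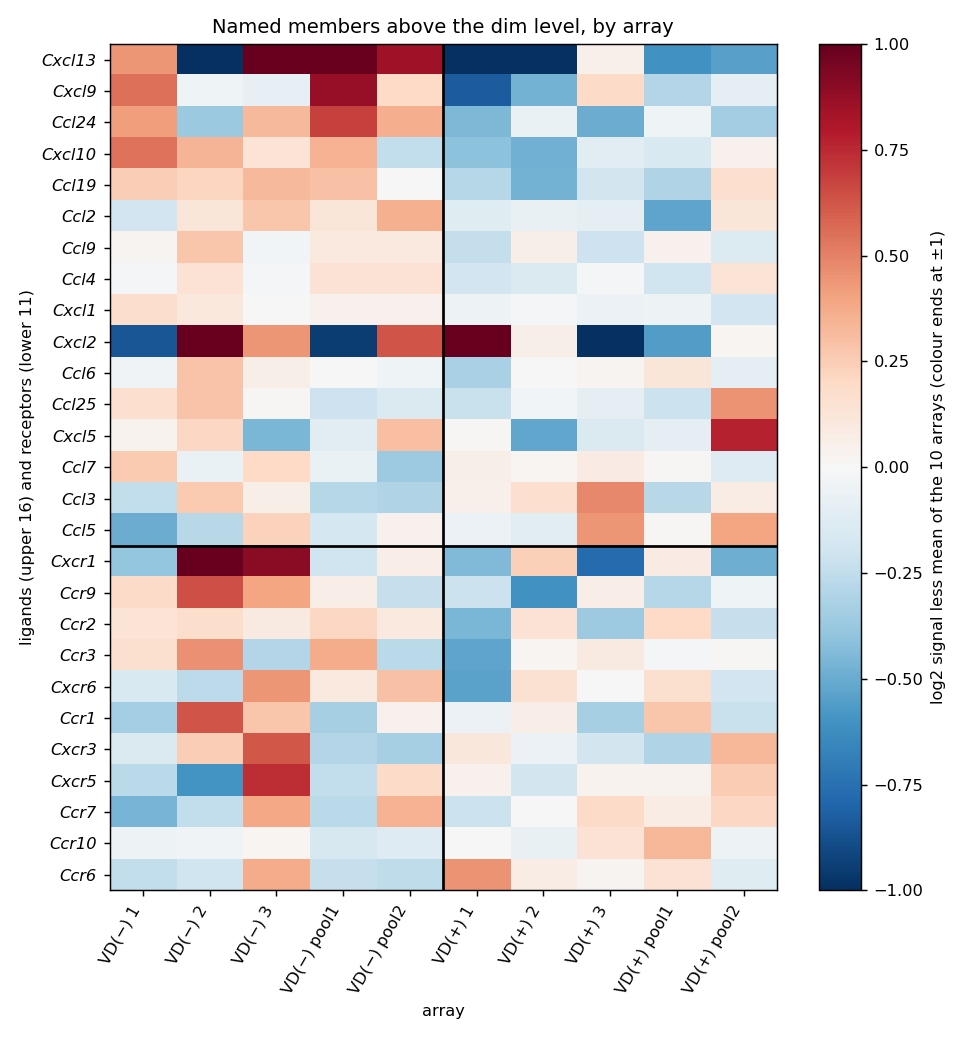
Log2 signal less the mean of the 10 arrays (colour, ending at ±1) for 27 named genes above the dim level, 16 ligands above the line and 11 receptors below it, with VD(−) arrays left and VD(+) arrays right. Cxcl13 and Ccl24 are low in VD(−) replicate 2, and Cxcr3, Cxcr5, Ccr6 and Ccr7 are high in VD(−) replicate 3.

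Genes that act around the receptors were read from lists of signaling and presentation genes. Of all genes, 4.05% were higher and 2.95% lower at a nominal p under 0.05, and lists this short can hold 1 such gene at that share. Of 18 measured genes of G protein signaling, 0 were higher and 1 lower at a nominal p, Ptk2b, which encodes a relative of focal adhesion kinase, at −0.42 on the log2 scale (SE 0.09, limma's adjusted p = 0.209). Of 12 genes that shut receptors off, 1 was higher and 1 lower at a nominal p, the receptor kinase genes Grk5 at 0.22 (SE 0.08) and Grk6 at −0.29 (SE 0.11). Of 13 genes of proteases and heparan sulfate, 1 was higher at a nominal p, namely Ext2, which elongates heparan sulfate chains that hold chemokines, at 0.17 (SE 0.06). Of 17 NF-kappaB genes and inflammatory inducers, 0 were higher or lower at a nominal p, and the same held for the 7 measured genes of platelet chemokines and atypical receptors. None of the genes named in this paragraph passed an adjusted p under 0.05.

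By position, 32 of the 50 genes were placed in 8 groups, with at most 5 genes annotated as protein-coding between neighbours. A gene not itself annotated as protein-coding had no place in this order and was left outside any group. Cxcl11 of chromosome 5 fell outside the group of Cxcl9 and Cxcl10, which need not mean distance, so the count depends on that annotation. The receptor genes Ccr9, Cxcr6, Xcr1, Ccr1, Ccr1l1, Ccr3 and Ccr2 of chromosome 9 had 6 of 7 log2 fold changes above 0, with a median of 0.17, and hold all 3 receptors at a nominal p. The group of Ccl2, Ccl7, Ccl11, Ccl12, Ccl8 and Ccl1 on chromosome 11 had 4 of 6 above 0 and 0 at a nominal p.

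**Figure D4:**
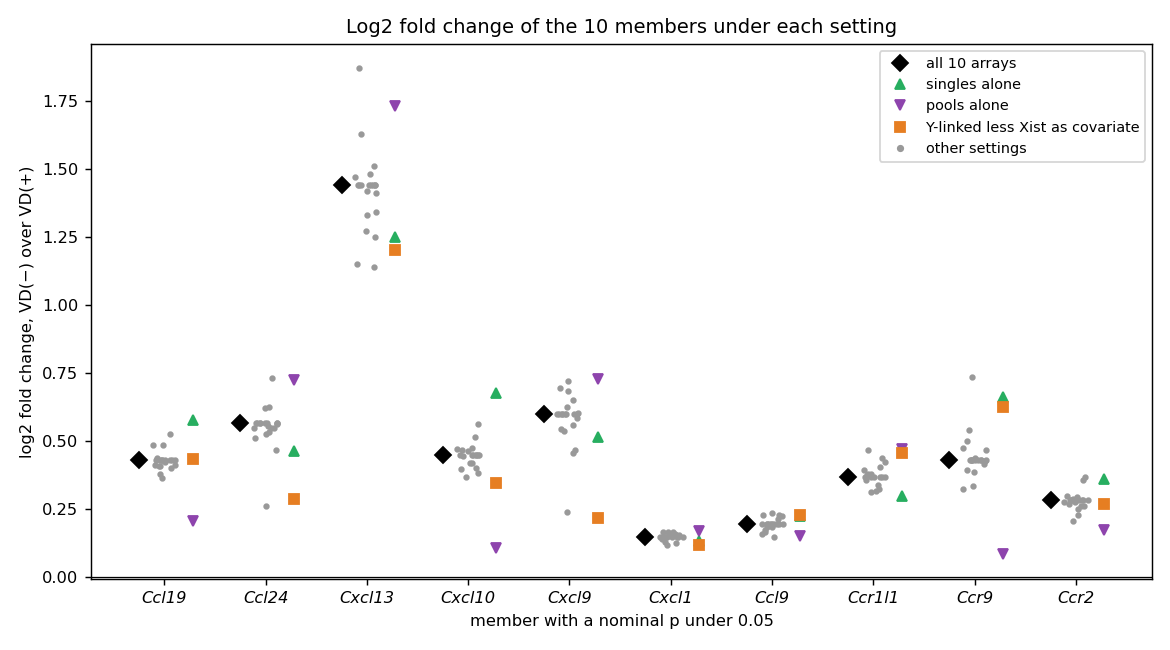
Log2 fold change (y axis, VD(−) over VD(+)) of the 10 genes with a nominal p under 0.05 in all 10 arrays (diamonds), in the single samples, in the pools, with sex-linked signal as a covariate and under the other settings (grey). All 236 alternative values lie above 0. Cxcl10 and Ccr9 are lowest in the pools, at 0.10 and 0.08.

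Leaving out each array in turn, Ccl19, Ccl24, Cxcl13, Cxcl10 and Ccr1l1 kept a nominal p under 0.05 in all 10 fits. With sex-linked signal as a covariate, Ccl19 had a log2 fold change of 0.43, Cxcl13 of 1.20, Cxcl10 of 0.34 and Ccr9 of 0.62. Without it Cxcl13 had 1.44, Cxcl10 0.45 and Ccr9 0.43, so the first and second were smaller under the covariate and Ccr9 was larger. Ccl24 and Cxcl9 were also smaller under it, as given above, and fewer ligands had a nominal p under 0.05. The number of arrays limits the precision of these values.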

How the data were processed

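Log2 values of 35556 probe sets on 10 arrays were deposited by the authors. Per the labels they were made with RMA in Partek. RMA subtracts background, forces the arrays to a common distribution and combines the probes of a set, so that a difference in total RNA between arrays is removed. For genome build and filters, nothing was given in the sources used here. A miRNA array is named in the methods, but the probe sets are from a mouse array for whole transcripts. Gene names came from the array's annotation, in which 21789 probe sets list 1 gene, 1621 several and 12146 none, and all 50 genes described were matched by identifier to a current gene table. The deposited table has 0 unused columns.

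All probe sets were fitted in limma 3.58.1 (lmFit, eBayes; R 4.3.3) with two-sided tests, without a filter or covariate, with Benjamini-Hochberg adjustment over all of them. The fit was tested on simulated data. Single genes were also tested with a two-sided exact permutation test of 5 arrays against 5. Genes named were those without overlap or with a nominal p under 0.05, the 8 ligands and 8 receptors with the smallest p, the members of their ligand-receptor axes, and Ccl2 and Ccr7, which the study used. Some others are named for their values. The genes and lists were chosen with earlier results of these data known. The replicate numbers did not pair the arrays. Alternatives were the methods' t-test, filters on dim probe sets, cyclic loess, array weights, a trended and robust spread, pool or single as covariate, singles or pools alone, a sex-linked covariate, a replicate block, the mean of a gene's probe sets and leaving out each array. Arrays without Y-linked signal alone and probe sets with 1 gene alone were added after the data were seen. Promoters came from RefSeq, GRCm38.p6.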

Additional observations from a re-analysis of the deposited data

Results flagged for a closer look

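In 5 of 100 groups of 5 arrays, 1 array lay far from the other 4, where chance gives about 5. Ccr6 was at 4.64 in VD(−) replicate 3, against 4.02 to 4.07 in the other VD(−) arrays. Cx3cl1, the membrane-bound ligand of CX3CR1, was at 4.55 in VD(−) replicate 1, against 4.24 to 4.32 in the other VD(−) arrays. Ccl28, a dim gene, was at 3.22 in VD(−) replicate 1, against 3.37 to 3.40 in the other VD(−) arrays. Ccr3, the receptor of eosinophils, was at 6.96 in VD(+) replicate 1, against 7.48 to 7.58 in the other VD(+) arrays. Cxcl1 was at 4.45 in VD(+) pool 2, against 4.59 to 4.64 in the other VD(+) arrays.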

How the results depend on the processing

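The count of the 50 genes past an adjusted p under 0.05 was 0 in all 24 alternatives. The 7 ligands at a nominal p became 2 in the single samples alone, 3 in the pools alone, 3 with sex-linked signal as a covariate and 3 in the arrays without Y-linked signal. The single samples and the pools hold fewer arrays. The 3 receptors became 1 with the methods' t-test, 1 in the single samples, 1 in the pools and 5 in the arrays without Y-linked signal. The cause of these changes was not tested. Leaving out 1 array gave 4 to 8 ligands, with 4 without VD(−) pool 1, and 1 to 3 receptors, with 1 without VD(−) replicate 2. The ligand median stayed above 0, between 0.0667 and 0.178, and the receptor median ran from −0.072 to 0.138. Of the 236 alternative values of the 10 genes at a nominal p, 236 were above 0 and 169 had a nominal p under 0.05. Arrays have no counts, so signal over background and the number of arrays limit what can be seen, and 15 of the 50 genes were dim.

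With the replicate number as a block, 9 ligands and 2 receptors had a nominal p under 0.05 and 0 genes passed the adjusted p. Same-numbered arrays of the groups had correlations of −0.05 to 0.06 in their deviations, and 1 of 5 VD(−) arrays correlated best with its own number, so the arrays share only a number.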
